A study of Caenorhabditis elegans with 2 samples.

Results

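The 612 transfer RNA (tRNA) genes of Caenorhabditis elegans, taken as every gene of biotype tRNA on the 6 chromosomes of the WBcel235 annotation, were examined for sites of MADF-8. They are 612 of the 46890 annotated genes. A tRNA gene was called bound when the summit of a kept site, the position of its highest signal, lay in a window that begins 500 bp upstream of the gene start and ends 100 bp downstream of it. The values come from chromatin immunoprecipitation with sequencing (ChIP-seq) of whole young adults, aged 64 hours and synchronised by starving first-stage larvae after bleaching. The worms were of strain RW12322, in which a CRISPR insertion on III (allele st12322) fuses the product of madf-8 to TY1, EGFP and 3xFLAG, and the tagged protein was recovered from sonicated chromatin with an anti-GFP antibody. Both samples are biological replicates of this 1 group, so no condition is compared, and whole worms mix all cell types. The deposited lists hold sites and no reads, which leaves library depth unknown. The authors' control was not analysed here, so its signal at tRNA genes is not known, and the part of such signal in the shares below was not tested. Intervals given for shares are 95% Wilson intervals that cover counting error over genes only, and genes that share a site are not independent.

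A tRNA carries an amino acid to the ribosome and reads the matching codon, and its gene is transcribed by RNA polymerase III. The promoter lies within the gene: factor TFIIIC binds the internal A box and B box and places TFIIIB just upstream of the start, which recruits the polymerase. Cells hold many copies of most tRNA genes, often with identical sequence. MADF-8 belongs to the proteins with a MADF domain, which resembles the Myb domain and binds DNA.

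The sequences of 6 bound tRNA genes whose summit fell inside the gene are shown first, because the position of the summits relative to these genes and their internal boxes is described below. They were read from the RefSeq genome WBcel235 (ce11) on the sense strand, 5′ to 3′. Capitals mark the letters searched as the core of the A box (GCNNAGTNG) and of the B box (GTTCGANNC), and a gene without capitals at a box holds no match to those letters. The genes are C28A5.t3 for alanine (chrIII:4428953-4429024, minus strand), F57F5.t1 for isoleucine (chrV:12002176-12002260, plus strand), F42A10.t1 for serine (chrIII:6158778-6158859, plus strand), R11.t1 and K09A11.t1 for tyrosine (chrX:16209769-16209852 and chrX:13264683-13264766, minus strand) and R04D3.t2 for valine (chrX:13307034-13307106, plus strand).
C28A5.t3: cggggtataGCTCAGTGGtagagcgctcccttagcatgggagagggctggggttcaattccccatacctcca
F57F5.t1: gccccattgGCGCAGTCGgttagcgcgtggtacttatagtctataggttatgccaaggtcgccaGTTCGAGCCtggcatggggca
F42A10.t1: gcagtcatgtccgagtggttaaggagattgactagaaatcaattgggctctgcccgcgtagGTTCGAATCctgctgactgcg
R11.t1: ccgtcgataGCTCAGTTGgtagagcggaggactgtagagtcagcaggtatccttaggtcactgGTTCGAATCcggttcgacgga
K09A11.t1: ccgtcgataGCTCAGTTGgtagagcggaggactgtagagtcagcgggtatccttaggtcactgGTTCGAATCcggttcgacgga
R04D3.t2: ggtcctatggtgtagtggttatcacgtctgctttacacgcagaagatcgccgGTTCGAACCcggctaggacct
Counted from 1 at the 5′ end, the summit lay at base 34 of C28A5.t3, at base 14 of F57F5.t1, at base 75 of F42A10.t1, at base 28 of R11.t1, at base 11 of K09A11.t1 and at base 47 of R04D3.t2. The sequence of R11.t1 occurs in 6 identical genes, that of F42A10.t1 in 11 and that of R04D3.t2 in 2, while those of C28A5.t3, F57F5.t1 and K09A11.t1 occur once.

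The regions of 2 pairs of neighbouring proline tRNA genes are shown because a single site is linked to both genes of each pair. The genes of a pair point away from each other, with the gene in capitals at each end and the sequence between their starts in lower case, on the plus strand of the same RefSeq genome. W09D6.t2 and W09D6.t1 are identical in sequence and lie at chrIII:11066848-11067098. ZK678.t5 and ZK678.t2 differ and lie at chrX:15747806-15748101.
W09D6.t2 and W09D6.t1: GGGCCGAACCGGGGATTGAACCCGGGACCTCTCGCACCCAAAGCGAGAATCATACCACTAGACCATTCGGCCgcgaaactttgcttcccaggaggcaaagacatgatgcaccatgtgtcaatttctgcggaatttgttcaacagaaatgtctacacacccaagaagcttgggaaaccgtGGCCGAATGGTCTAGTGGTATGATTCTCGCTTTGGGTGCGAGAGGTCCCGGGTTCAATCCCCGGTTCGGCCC
ZK678.t5 and ZK678.t2: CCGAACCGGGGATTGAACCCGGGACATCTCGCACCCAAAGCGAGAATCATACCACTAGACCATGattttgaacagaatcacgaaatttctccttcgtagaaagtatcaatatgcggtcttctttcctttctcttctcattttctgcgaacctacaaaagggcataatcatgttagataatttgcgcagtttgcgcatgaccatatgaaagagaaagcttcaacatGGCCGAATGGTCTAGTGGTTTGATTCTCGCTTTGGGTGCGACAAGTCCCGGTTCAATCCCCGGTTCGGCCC
Counted from 1 at the left end, the summit lay at base 29 of the first region, inside W09D6.t2, and at base 289 of the second, inside ZK678.t2. The starts of the genes are separated by 107 bp and 161 bp. Of all kept sites at tRNA genes, 8 were linked to 2 tRNA genes, and they concern 7 pairs, 6 of which point away from each other. The serine genes F42A10.t1 and F42A10.t2 lie on the same strand.

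tRNA genes had a kept MADF-8 summit more often than protein-coding genes did. In the set that the authors made from both replicates, 66 of 612 tRNA genes were bound (10.8%, 8.57 to 13.5), against 6.51% of the 19973 protein-coding genes by the same window and 3.70% of all genes. On the autosomes 52 of 336 tRNA genes were bound (15.5%, 12 to 19.7), against 7.43% of protein-coding genes. On X 14 of 276 were bound (5.07%, 3.05 to 8.33), against 0.732% of protein-coding genes. The intervals of the tRNA and protein-coding shares did not overlap in any of these 3 comparisons, and no test was run on the differences. X holds 45.1% of the tRNA genes and 13.7% of the protein-coding genes.

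The size of that difference depended on the list. With the conservative set the authors also deposited, 72 tRNA genes were bound (11.8%, 9.45 to 14.6), against 6.47% of protein-coding genes. With replicate 1 alone 39 were bound (6.37%, 4.70 to 8.59), against 4.94% of protein-coding genes, and with replicate 2 alone 36 were bound (5.88%, 4.28 to 8.04), against 5.63%. On the autosomes the kept sites of replicate 1 were at 28 tRNA genes (8.33%, 5.83 to 11.8), against 5.65% of protein-coding genes, and those of replicate 2 at 30 (8.93%, 6.33 to 12.5), against 6.45%. On X replicate 1 marked 11 tRNA genes (3.99%), against 0.403% of protein-coding genes, replicate 2 marked 6 (2.17%), against 0.439%, and the conservative set 20 (7.25%), against 0.696%. The conservative set marked 52 tRNA genes on the autosomes (15.5%), against 7.38% of protein-coding genes. In each replicate alone the intervals of the tRNA and protein-coding shares overlapped over all chromosomes and on the autosomes, and did not overlap on X. With only the sites at or above the median signal of the set, 11 tRNA genes were bound (1.80%), against 3.89% of protein-coding genes, so the direction turned. On the autosomes the shares with those stronger sites were 2.98% for tRNA genes and 4.48% for protein-coding genes.

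Far more tRNA genes held a candidate, a site of the authors' ranked list before their threshold. The ranked list of both replicates put a summit in the window of 395 tRNA genes (64.5%, 60.7 to 68.2), against 23.5% of protein-coding genes and 18.0% of all genes. On the autosomes 239 tRNA genes held one (71.1%), against 24.6% of protein-coding genes, and on X 156 held one (56.5%), against 16.1%. Each replicate's own ranked list gave close to the same share of tRNA genes, 65% in replicate 1 (28.1% of protein-coding genes) and 62.1% in replicate 2 (24.8% of protein-coding genes). In all, 301 tRNA genes held a candidate in both replicates' lists, 135 in neither, and 126 in none of the 3 ranked lists. The overlap of the lists was not counted for protein-coding genes.

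Windows moved along the chromosome show how much of this a list of 32380 candidates gives at other places near the same genes. With the window of each tRNA gene moved 2000 bp upstream, 19.9% held a candidate, and with the window moved 2000 bp downstream 20.3% did. For protein-coding genes the share was 18.7% upstream and 18.5% downstream, below the 23.5% at the genes themselves. Kept sites fell in the moved windows of 7 tRNA genes upstream (1.14%) and 3 downstream (0.490%), compared with 10.8% at the genes. For protein-coding genes kept sites were in 1.42% of the windows moved upstream and 1.19% of those moved downstream, compared with 6.51% at the genes.

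**Figure D1:**
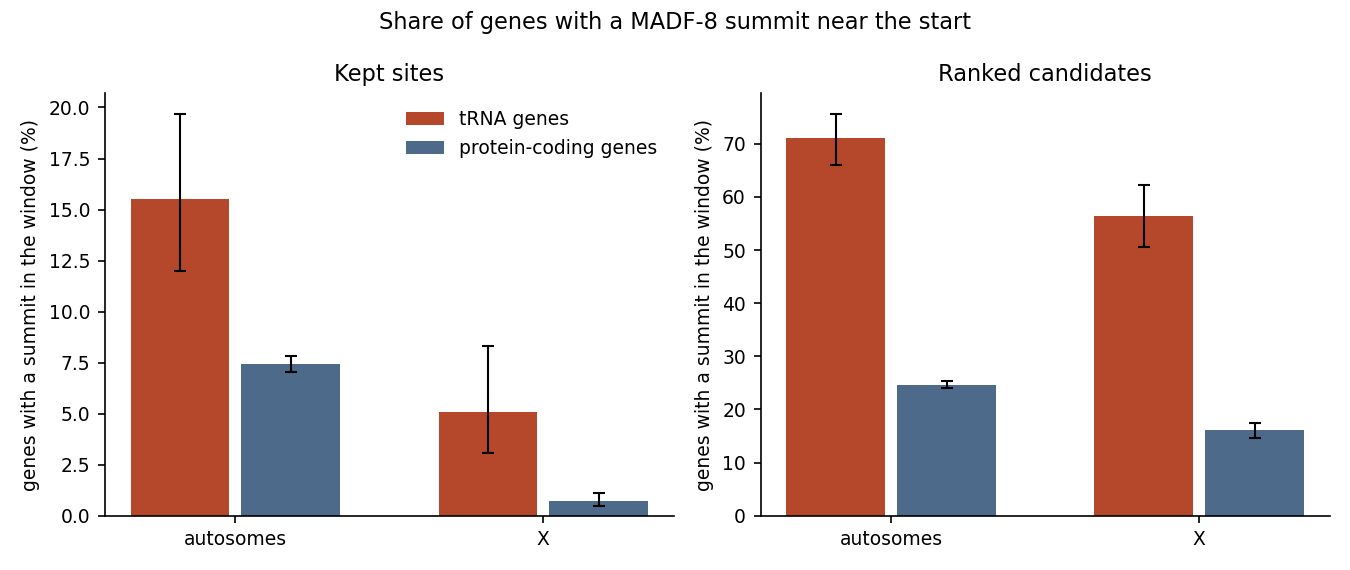
Share of tRNA and protein-coding genes with a summit in the window around the gene start (y axis, percent), on the autosomes and on X, for kept sites (left) and ranked candidates (right). Error bars are 95% Wilson intervals. On both kinds of chromosome and in both lists the tRNA bar stands above the protein-coding bar, from 71.1% against 24.6% for candidates on the autosomes to 5.07% against 0.732% for kept sites on X.

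The summits at bound tRNA genes lay in the gene or close to its start. For the 66 bound genes, each by its strongest site, the summit lay at a median of 11 bp downstream of the gene start, with quartiles of -36 and 30 bp and a range of -450 to 84 bp. The tRNA genes are 64 to 122 bp long, with a median of 72 bp. The summit fell inside the gene in 36 of the bound genes, upstream of the start in 28 and past the end in 2. It lay within 100 bp of the start in 58 of the 66 genes (87.9%), against 21.7% of bound protein-coding genes, whose median was -204 bp.

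Candidates also lay close to tRNA starts, with a wider spread. Over the 395 tRNA genes with a candidate the median distance was 1 bp with quartiles of -84.5 and 37 bp, and the summit was inside the gene in 177. Of these candidates 78.2% lay within 100 bp of the start, against 32.6% of the protein-coding genes with a candidate and a median there of -189 bp. Counting any summit within 100 bp on either side of the start, 326 of 612 tRNA genes (53.3%) held a candidate, against 8.41% of protein-coding genes. At tRNA starts moved by 2000 bp the share was 8.82% upstream and 8.01% downstream. For kept sites the same narrow window held a summit at 59 tRNA genes (9.64%), against 1.48% of protein-coding genes.

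**Figure D2:**
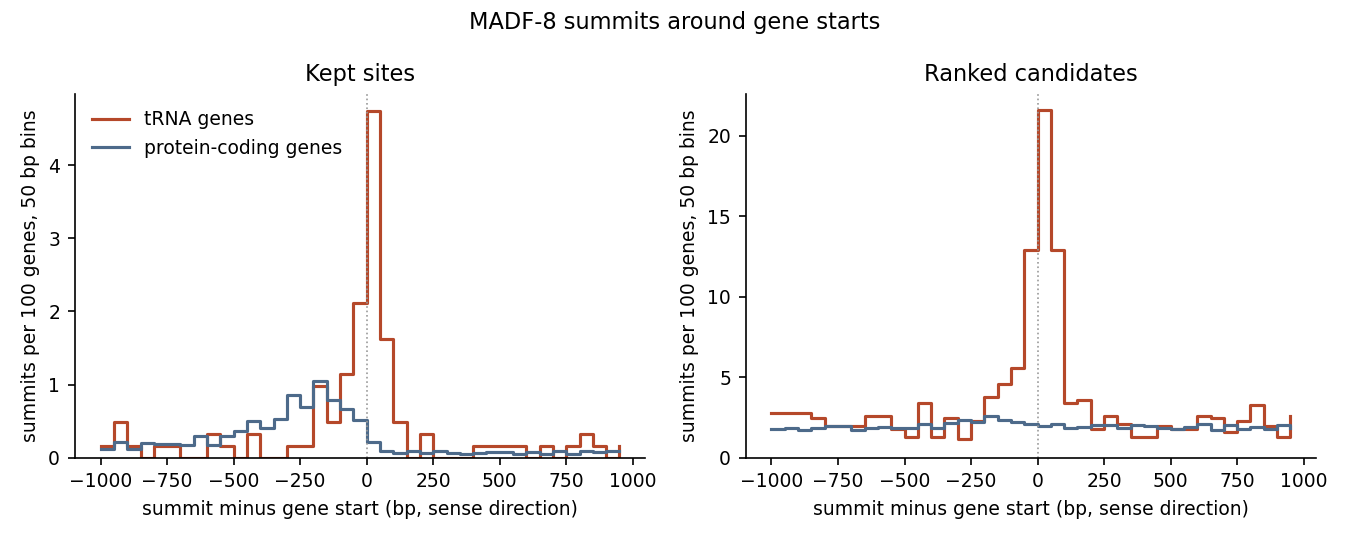
Summits per 100 genes in bins of 50 bp (y axis) against the distance from the gene start in the sense direction (x axis, bp), for tRNA and protein-coding genes, with kept sites on the left and ranked candidates on the right. The tRNA line peaks in the bins next to the start in both lists, while the protein-coding line for kept sites is highest upstream of the start, where the median summit of its bound genes lay at -204 bp.

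Of the 1972 kept sites, 64 were linked to a tRNA gene. They made up 12 of the 55 sites on X (21.8%) and 52 of the 1917 sites on the autosomes (2.71%). Most lay outside coding windows: 50 of the 64 were outside the window of every protein-coding transcript start, and 62 lay nearer to a tRNA start than to a coding start. The 64 sites were chosen for lying near a tRNA start, so these counts are set in part by that choice. They also depend on the 500 bp edge. The summits at F58D5.t1 and T23F1.t1 lay 518 and 507 bp upstream of the starts of hrpr-1 and pqn-71. Many of the 64 also lay in the window of a noncoding gene of another class, and these stay in all counts. Among the genes named below, they include the sites of C28A5.t3, T23F1.t1, F35H8.t1, C28G1.t1, C33G3.t2 and M01E5.t1. The sites of the W09D6 and T10B10 pairs are also among them. Such sites cannot be given to the tRNA gene alone.

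The sites at tRNA genes were of low signal within the set. The signal is the authors' own value for each site, and its scale is not stated in the sources used here. It had a median of 82.9 at the 64 sites and of 122 at the other 1908 sites. The lowest values were 3.73 and 2.45. Some of the 64 are a second, far weaker site at a gene with a stronger one, such as 7.35 beside 75.4 at C28A5.t2. At or above the median of the whole set, 120, were 11 of the 64, and 2 lay at or above 207, the upper quartile of the set. The highest score the authors give, 1000, was reached by 71.9% of the sites at tRNA genes and by 89.1% of the other sites. On the autosomes the median signal was 83.7 at tRNA genes and 124 at other sites, and on X it was 81.8 at tRNA genes and 85.7 at other sites. The width was the same, with a median of 276 bp for both kinds of site.

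The strongest of all 1972 sites was linked to a tRNA gene. It lay on chromosome I from 13310646 to 13310978 and had a signal of 2986, with 1373 in the replicate 1 list and 1640 in the replicate 2 list. Its summit was 416 bp upstream of T04D3.t4, a threonine tRNA gene (13310345 to 13310416, minus strand) inside the protein-coding gene T04D3.8, and 844 bp downstream of the nearest coding start. It was therefore in no coding window, but it also lay far outside the range of most tRNA summits, which fell within 100 bp of the start. The other sites at tRNA genes did not exceed 288.

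The next 4 by signal also had their summit beside the gene and not in it. F47G6.t1, an arginine tRNA gene inside spe-15, had a signal of 288, with 126 in replicate 1 and 158 in replicate 2, and a summit 97 bp upstream of its start. F58D5.t1, for valine, had 179, with 79.5 in replicate 1 and 91.3 in replicate 2, and its summit was the farthest upstream, at -450 bp. T23F1.t1, for lysine on V, had 170, with 87.8 and 79.9 in replicates 1 and 2, and its summit lay 84 bp past the start, beyond the end of the 73 bp gene. For C47E8.t1, a tyrosine tRNA gene inside gasr-8, the signal was 158 and the summit lay at -190 bp. All 5 of these genes have a coding start within 1000 bp, between 422 and 641 bp away.

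Sites in or near the gene body followed, with signals above the median of the whole set, 120, and below its upper quartile, 207. C28A5.t3, the alanine gene shown above, had a signal of 142, with 67.8 in replicate 1 and 77.7 in replicate 2, and a summit 33 bp into the gene. F52C9.t1, for threonine on III, had 136 (63.1 in replicate 1, 61.3 in replicate 2), with its summit at -57 bp and the nearest coding start, of mog-3, 2691 bp away. B0228.t1, for glutamine on II, had 132 (57.8 in replicate 1, 70.8 in replicate 2), a summit at -1 bp and a coding start 1367 bp away. C56G7.t1, for lysine on III, had 125 (52.7 and 64.7), and R11.t1, for tyrosine on X, had 121 (68.4 and 53.8). Each of the 10 strongest was in the kept lists of both replicates and in the conservative set.

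Tyrosine R11.t1 was the strongest bound gene on X, where 14 tRNA genes at 12 sites were bound, with signals between 19.4 and 121 over the sites. The asparagine gene F41D9.t3 followed with 111 (59.3 in replicate 1, 47.6 in replicate 2), a summit 57 bp into the gene and a coding start 3868 bp away. The divergent and identical glycine genes T10B10.t2 and T10B10.t1 shared a site of 90.2, with 33.4 in replicate 1 and 55.9 in replicate 2. They also shared a second site of 19.4. The methionine gene C02F12.t1 had 86.7, the glutamate gene C28G1.t1 85.1, and the pair M02F4.t2 for glutamate and M02F4.t1 for glycine shared a site of 82.3. Below these were K09A11.t1 for tyrosine with 81.3 and R04D3.t2 for valine with 77.2, both shown above. The proline pair ZK678.t5 and ZK678.t2 shared 70.3, C04A11.t1 for leucine had 68.7 and C33G3.t2 for lysine had 59.6. The last 2 were absent from the conservative set. Of the 14, R11.t1 and F41D9.t3 were in the kept lists of both replicates, the T10B10 pair in that of replicate 2 alone and the ZK678 pair in that of replicate 1 alone, and the others in neither.

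**Figure D3:**
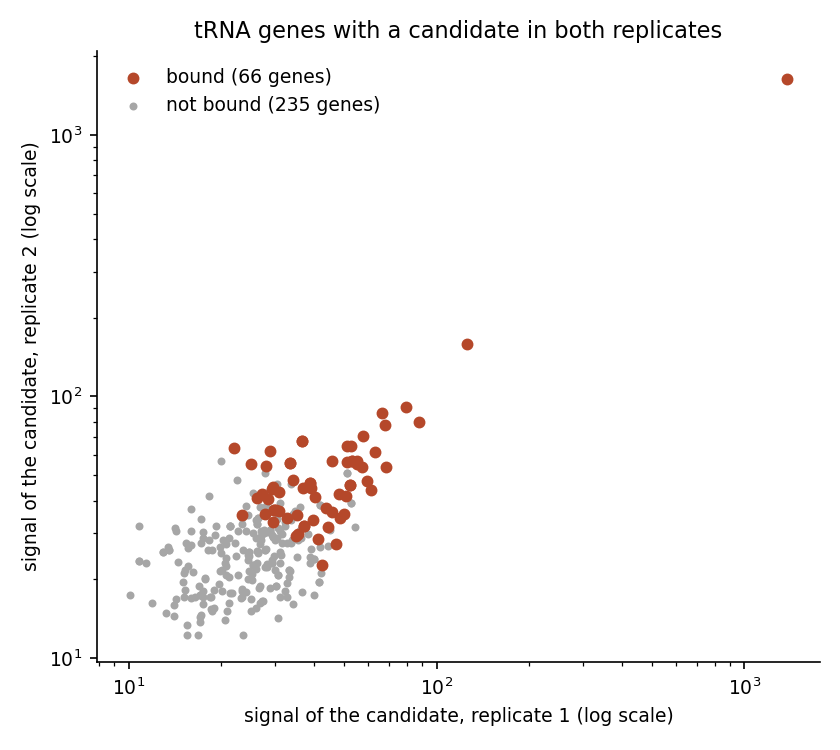
Signal of the strongest candidate in each tRNA gene's window in replicate 1 (x axis, log scale) and in replicate 2 (y axis, log scale), for genes with a candidate in both. The 66 bound genes are mostly at the upper right of the cloud, T04D3.t4 stands alone at 1373 in replicate 1 and 1640 in replicate 2, and many bound genes lie among genes that were not bound. Bound genes were chosen from a set made from both replicates, so their position follows in part from that choice.

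Both replicates showed a candidate at every bound tRNA gene, but many of these candidates did not pass the authors' threshold in a replicate alone. In the ranked list of replicate 1 the candidate signals of the 66 genes ran from 22 to 1373 with a median of 40, and in that of replicate 2 from 22.7 to 1640 with a median of 44.9. The medians over all candidates were 17.8 in replicate 1 and 18.9 in replicate 2. The 66 genes come from a set made from both replicates. Candidates in both lists and values above these medians follow in part from that choice. The candidate signal was higher in replicate 2 for 42 of the 66 genes. The kept lists of both replicates held 20 of the 66 genes, that of replicate 1 alone another 7 and that of replicate 2 alone another 11. The remaining 28 were in neither kept list, and their candidate scores ran from 31 to 816 in replicate 1 and from 47 to 830 in replicate 2. This overlap was not counted for protein-coding genes. Of those, 986 had a kept site in replicate 1 and 1124 in replicate 2, against 1301 in the set of both. Another 17 tRNA genes had a kept site in 1 replicate and none in the set of both.

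The candidates at tRNA genes that were not bound overlapped the bound genes in signal. There were 329 such genes, with a median signal of 47.0 and a highest of 94.3, compared with a median of 33.1 over all candidates of that list. Their scores had a median of 95 and a highest of 829, where the lowest score of the kept set was 830. The median signal was 48.1 at the 187 such genes on the autosomes and 45.2 at the 142 on X.

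In the set of both replicates, autosomal tRNA genes near a coding start were bound more often than those far from one. On X, with 14 bound genes, the share did not fall steadily with distance. The nearest start of a protein-coding transcript was at a median of 640 bp from bound and 1328 bp from unbound autosomal genes, and of 1463 bp from bound and 1870 bp from unbound genes on X. On the autosomes 22 of the 91 tRNA genes with a coding start within 500 bp were bound (24.2%, 16.5 to 33.9), 11 of the 59 at more than 500 and up to 1000 bp (18.6%, 10.7 to 30.4), and 19 of the 186 farther away (10.2%, 6.64 to 15.4). On X the counts were 1 of 30 (3.33%), 4 of 45 (8.89%) and 9 of 201 (4.48%) in the same order. Within 1000 bp of a coding start 5 of 75 genes on X were bound (6.67%, 2.88 to 14.7). That share was above the 4.48% farther away (2.37 to 8.29), as on the autosomes, but with overlapping intervals. Over all chromosomes 38 of 225 genes with a coding start within 1000 bp were bound (16.9%, 12.6 to 22.3), and 28 of 387 with none (7.24%, 5.05 to 10.3), a comparison in which 201 of the 387 genes far from a coding start are on X. The autosomal tRNA genes far from any coding start thus had a share of 10.2%, above the 7.43% of autosomal protein-coding genes, but the interval of the tRNA share includes that value.

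Candidates did not follow the same order. On the autosomes they were at 74.7% of the tRNA genes within 500 bp of a coding start, 67.8% of those at more than 500 and up to 1000 bp and 70.4% of those farther away. The shares on X were 46.7%, 64.4% and 56.2%. Over all chromosomes, kept sites of replicate 1 alone were at 7.56% of tRNA genes with a coding start within 1000 bp. The share with none was 5.68%, with overlapping intervals (4.77 to 11.8 and 3.78 to 8.46). In replicate 2 alone the shares were 10.2% (6.91 to 14.9) and 3.36% (1.97 to 5.66). On the autosomes these shares were 9.33% (5.64 to 15.1) and 7.53% (4.54 to 12.2) in replicate 1. In replicate 2 they were 14.7% (9.89 to 21.2) and 4.30% (2.20 to 8.26). By distance bin the autosomal shares were 12.1%, 5.08% and 7.53% in replicate 1, with no steady step down. In replicate 2 they were 15.4%, 13.6% and 4.30%. Inside a protein-coding gene 34 of 290 tRNA genes were bound (11.7%), and outside 32 of 322 (9.94%).

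**Figure D4:**
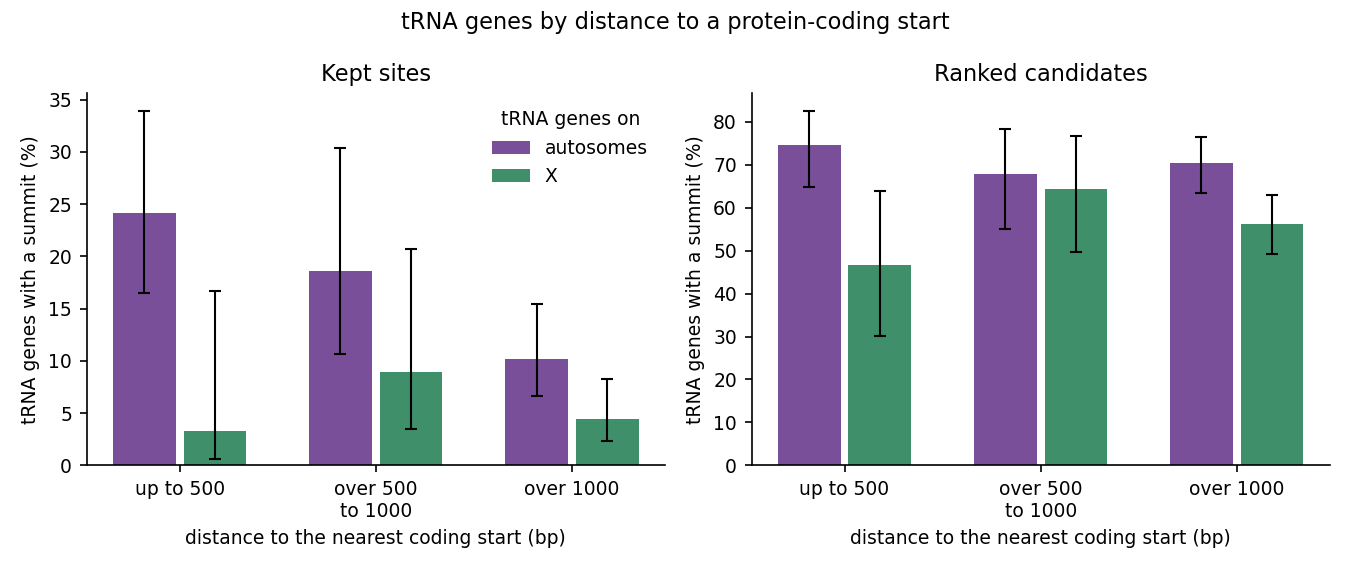
Share of tRNA genes with a summit in the window (y axis, percent) by distance from the gene start to the nearest protein-coding transcript start (x axis, bp), on the autosomes and on X, for kept sites (left) and ranked candidates (right). Error bars are 95% Wilson intervals. For kept sites the autosomal bars step down from 24.2% to 18.6% and 10.2%, while the bars for candidates lie between 46.7% and 74.7% with no such order.

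The strongest bound tRNA genes with no coding start within 1000 bp were F52C9.t1 and B0228.t1, given above, and then F41D9.t3. M01E5.t1, for lysine, had a signal of 109 (55.3 in replicate 1, 56.7 in replicate 2) and a summit at -21 bp. Its site also lay in the window of a small nuclear RNA gene. F35H8.t1, for arginine on II, had 93.4 and a summit 23 bp into the gene, with the nearest coding start 6212 bp away, yet it was in neither replicate's kept list. W09D6.t2 and W09D6.t1 shared 92.2, and F33G12.t1, for isoleucine, had 91.6 with a summit 15 bp into the gene.

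Chromosomes differed in the share of tRNA genes bound. III had the highest, with 16 of 64 (25%, 16.0 to 36.8), followed by II with 10 of 57 (17.5%), V with 12 of 78 (15.4%), I with 8 of 66 (12.1%), IV with 6 of 71 (8.45%) and X with 14 of 276 (5.07%). The intervals of the autosomes all overlapped one another, also those of III and IV (3.93 to 17.2). The interval of X (3.05 to 8.33) overlapped those of IV and I (6.27 to 22.1), and not those of II, III and V. Protein-coding genes ran from 10.8% on III and 10.1% on I down to 0.732% on X. Candidates were at 86.0% of the tRNA genes on II and 73.4% of those on III, down to 56.5% on X.

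All but 3 of the 21 isotypes, the classes of tRNA by amino acid, had a bound gene. The largest shares were 4 of 19 tyrosine genes (21.1%, 8.51 to 43.3), 7 of 42 proline genes (16.7%, 8.32 to 30.6), 2 of 13 cysteine genes (15.4%), 7 of 46 lysine genes (15.2%) and 5 of 34 alanine genes (14.7%). None of the 20 histidine genes was bound (upper bound 16.1%), none of the 12 tryptophan genes (upper bound 24.2%) and not the 1 selenocysteine gene. The intervals of all isotypes with a bound gene included the 10.8% of all tRNA genes. Candidates were at all 13 cysteine genes, 35 of 42 proline genes (83.3%) and 44 of 55 glycine genes (80.0%), and at 5 of 12 tryptophan genes (41.7%). The 5 tRNA genes with no isotype in RefSeq had neither.

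**Figure D5:**
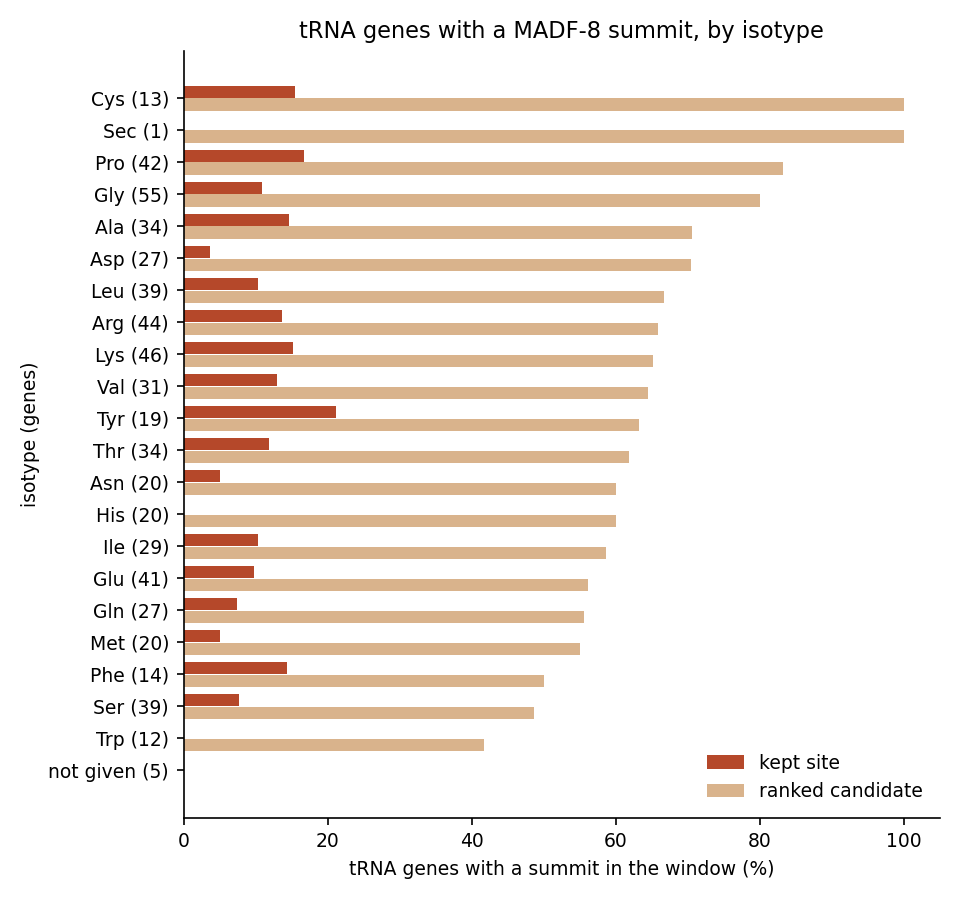
Share of tRNA genes with a summit in the window (x axis, percent) for each isotype (y axis, number of genes in parentheses), for kept sites and ranked candidates, ordered by the share with a candidate. Cysteine has a candidate at all 13 genes and a kept site at 15.4%, and histidine has candidates at 60.0% of its 20 genes and no kept site.

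Genes with identical copies were bound at close to the share of all tRNA genes, 10.8%. The 612 genes have 200 different sequences, and 469 of them have at least 1 identical copy. Of these 469, 47 were bound (10%), and of the 143 with a sequence of their own 19 were bound (13.3%). The 27 identical groups with a bound copy hold 314 genes, of which 267 were not bound, and no group was bound in full. With a share this low, groups bound only in part do not show that identical copies differ. The largest group, 29 glycine genes, had 4 bound copies and 26 with a candidate. In the group of 25 lysine genes 3 were bound and 16 had a candidate, and in the group of 24 proline genes 4 were bound and 20 had a candidate. None of the 21 aspartate genes of another group was bound, and 15 had a candidate.

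Most tRNA genes offer little sequence found only once in the genome. In 474 of the 612 genes (77.5%) no word of 31 letters was unique, and such genes included 48 of the 66 bound ones (72.7%) and 26 of the 36 with the summit inside. Over the whole window a median of 90.2% of words was unique at bound genes, 90.0% at unbound genes with a candidate and 89.8% at genes with no candidate, and 100% at protein-coding genes. Among genes with no unique word 10.1% were bound and 66.2% had a candidate. Among genes with some unique words 14.7% were bound and 59.5% had a candidate, and of the 22 genes unique throughout 1 was bound and 12 had a candidate. The length of the reads and the handling of reads that map to several copies are not stated in the labels or file headers, and the part of repeated sequence in these results was not tested.

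The internal promoter letters did not separate bound from unbound tRNA genes. On the sense strand the B box core GTTCGANNC was in 48 of 66 bound genes (72.7%) and 393 of 546 unbound genes (72.0%). The A box core GCNNAGTNG was in 29 of the bound genes (43.9%) and 204 of the unbound genes (37.4%). On either strand of the 100 bp from the gene start, GTTCGANNC was at 71.1% of tRNA genes and 0.771% of protein-coding genes, and GCNNAGTNG at 38.1% and 2.20%. Up to 50 bp either side of the summit, on either strand, the B box core was at 23 of the 64 sites linked to tRNA genes (35.9%), against 1.15% of the other 1908 sites. The 64 sites were chosen for lying at tRNA genes, so that difference is set in part by the choice. These matches describe letters and show no binding of a factor.

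The share of sites with 3 words of 8 letters was also counted. These words were chosen because they were frequent at these same sites in an earlier look at the data, nearly all of which are not linked to tRNA genes, so their share at the other sites is set by that choice and is given as a description. AAGGCGCA, AAAGGCGC and GCGAGACC were searched up to 50 bp either side of the summit on both strands, and the first 2 overlap in 7 letters. At least 1 of the 3 was at 2 of the 64 sites linked to tRNA genes (3.12%), against 20.1% of the other sites. In windows of the same length just upstream of each protein-coding gene start the share was 0.731%. AAGGCGCA was at the site of C47E8.t1 and at no other of the 64, compared with 12.5% of the other sites. GCGAGACC was at the site of Y54G2A.t3, compared with 9.07% of the other sites.

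The share bound was also split by the presence of a tRNA neighbour. Of the 159 tRNA genes with the start of another within 500 bp, 18 were bound (11.3%), and of the 453 without, 48 were bound (10.6%). Of the genes with a neighbour 99 are on X. On the autosomes the shares were 20% of the 60 with a neighbour and 14.5% of the 276 without, and on X they were 6.06% of 99 and 4.52% of 177. No test was run on these differences. Candidates were at 88.3% of those 60 autosomal genes and 67.4% of the 276, and on X at 59.6% of the 99 and 54.8% of the 177. The windows of neighbouring tRNA genes can overlap, so the same summit can mark a gene and its neighbour. Of the kept sites at tRNA genes, 8 were linked to 2 tRNA genes. This linking rule can raise the shares of genes with a neighbour, for kept sites and for candidates, and its part was not tested.

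Other classes of short noncoding genes were compared on the autosomes, where nearly all of them lie. Kept sites were at 15.5% of the 336 autosomal tRNA genes (12 to 19.7), against 34 of 126 small nuclear RNA genes (27.0%, 20 to 35.3) and 64 of 313 small nucleolar RNA genes (20.4%, 16.4 to 25.3). The interval of the tRNA share overlapped that of the small nucleolar RNA genes and not that of the small nuclear RNA genes. Candidates were at 71.1% of the autosomal tRNA genes (66.1 to 75.7), against 52.4% of small nuclear RNA genes (43.7 to 60.9) and 52.4% of small nucleolar RNA genes (46.9 to 57.9), with no overlap of the tRNA interval with either. On X kept sites were at 5.07% of tRNA genes and 1 of 33 small nucleolar RNA genes (3.03%), with overlapping intervals (3.05 to 8.33 and 0.537 to 15.3). Candidates on X were at 56.5% of tRNA genes (50.6 to 62.2) and 30.3% of small nucleolar RNA genes (17.4 to 47.3). No test was run on these differences.

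Genes that serve tRNA genes and their products were counted by protein-coding transcript starts, for which 6.97% of all protein-coding genes were bound. Of 17 genes for RNA polymerase III and its factors 3 were bound (17.6%, 6.19 to 41.0). They were rpac-19, a subunit shared with RNA polymerase I (signal 93.4), rpb-12, a small subunit shared by the nuclear RNA polymerases (signal 410), and mafr-1, the homolog of Maf1, which represses RNA polymerase III (signal 85.5). Of the 15 genes found for tRNA processing and modification 1 was bound (6.67%), pus-1, which encodes a pseudouridine synthase (signal 176). Of 21 genes for cytosolic tRNA synthetases, which join each amino acid to its tRNA, 3 were bound (14.3%, 4.98 to 34.6): aars-2 for alanine (signal 226), fars-3 for phenylalanine (signal 75.4) and hars-1 for histidine (signal 707). The intervals of all 3 lists include the 6.97% of all protein-coding genes.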

How the data were processed

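ChIP-seq site lists of MADF-8 from 2 replicates of 1 group, grouped by the sample labels, were analysed. Per the file headers the authors' lists are on assembly ce11. The deposited score is the scaled score of the irreproducible discovery rate, at least 830 in the thresholded lists (the kept sites). Each site also has a deposited signal, a value set by the authors, and a deposited summit offset. The lists of the pair were made from both replicates and a control that was not analysed here. Aligner and peak caller: not given in the sources used here. Also left out were 16 unlabelled columns of values per replicate. Genes were from Ensembl release 115, tRNA names and isotypes from RefSeq (612 of 612 matched by identifier). Where a gene had several sites the strongest was used. Shares carry Wilson intervals, and no test was run. Named tRNA genes are the 10 of highest signal, the 10 highest with no coding start within 1000 bp, and all bound ones on X. Some named results are not reported here. C. elegans genes of the 3 pathway lists are named where bound. The members, lists and rules were chosen with earlier results of these data known. Linking was tested on simulated data. Alternatives were other lists, signals, windows, linking rules and 1 gene per identical sequence; moved windows and the 100 bp window were added after seeing the data. Python 3.11.15, numpy 2.4.6, pandas 2.3.3, scipy 1.17.1 and matplotlib 3.10.9 were used.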

Additional observations from a re-analysis of the deposited data

How the results depend on the processing

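Of 95 values recomputed under alternatives, 64 stayed within the limits set (1.5 times a count, the Wilson interval of a share, or -3 to 17 bp for the median summit), 29 moved and 2 reversed. With the stronger sites alone the share of tRNA minus protein-coding genes was -2.09 percentage points over all chromosomes and -1.50 on the autosomes, against 4.27 and 8.05. The same setting left 11 bound tRNA genes (10 autosomal, 1 on X), 9 with and 2 without a coding start within 1000 bp, 11 sites, and a median summit of -30 bp. With 1 gene for each identical sequence there were 26 bound genes among 200 (22 autosomal, 4 on X), 20 with and 6 without a near coding start, and 25 sites. The copy kept was the first in chromosome order, so a copy on X was kept only where no autosomal copy exists. A group of identical genes counted as bound only when that copy was bound. These counts therefore do not give how many sequences have a bound copy, and the fall on X is in part set by that order. With either replicate left out there were 36 to 39 bound genes, 28 to 30 autosomal, 6 to 11 on X, 17 to 23 with and 13 to 22 without a near coding start, 32 to 34 sites, a median summit of -7 to -1 bp, and differences of 0.255 to 1.44 percentage points over all chromosomes and 2.48 to 2.68 on the autosomes. A limit of 500 bp in place of 1000 bp left 23 bound genes near a coding start. The cause of these changes was not tested, beyond the smaller lists, the fewer genes and the choice of copy that the settings hold by construction. No paired analysis was possible because both samples belong to 1 group. Library depth is unknown, so no limit from it can be given.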

Other observations

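The set of both replicates and the conservative set named partly different tRNA genes: 15 bound genes of the first were absent from the conservative set, and 21 genes bound in the conservative set were absent from the first. The same comparison was not made for protein-coding genes. No tRNA gene was kept in the lists of both replicates and missed in the set made from the pair. In the ranked list of the pair, 92 candidates had a score at or above the lowest of the kept set without being in it, and none of them was linked to a tRNA gene.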
